A study of Homo sapiens with 13 samples.

Results

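The peaks of open chromatin at promoters of respiratory chain genes were compared between G1- and M-phase T98G cells, an established human glioblastoma line. Members were protein-coding genes of GENCODE on GRCh37 (the assembly of hg19) whose symbol begins with NDUFA, NDUFB, NDUFC, NDUFS, NDUFV, UQCR, COX4, COX5, COX6, COX7, COX8, ATP5F, ATP5M or ATP5P, together with SDHA, SDHB, SDHC and SDHD. Of 97 such genes, 88 had at least 1 peak over the start site (TSS) of any of their transcripts. These gave 94 member peaks out of 129347 in the table, and all 94 passed the filter on low values. The gene counts include the annotated readthrough genes ATP5MF-PTCD1 and NDUFC2-KCTD14, which share their peaks with ATP5MF and NDUFC2.

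Accessibility was measured by ATAC-seq, in which the Tn5 transposase cuts and tags open DNA, in 3 libraries of each phase. G1-phase cells had been kept without serum for 72 h. M-phase cells had been starved for 48 h and then released for 36 h into serum with nocodazole, a drug that blocks microtubules and arrests cells in mitosis. Both groups are the same line with no genetic change, and serum release cannot be told apart from the phase. By the labels each M-phase replicate was sequenced on both HiSeq and NextSeq and the G1 replicates on HiSeq, so platform cannot be told apart from the phase either. The labels do not say whether replicates were separate cultures, so p-values measure the spread between these libraries, which may be technical.

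The respiratory chain sits in the inner mitochondrial membrane. Complex I takes electrons from NADH and complex II takes them from succinate. Both hand them to ubiquinone, complex III passes them to cytochrome c, and complex IV (cytochrome c oxidase) passes them to oxygen. The proton gradient built on the way drives ATP synthase. Most subunits are encoded in the nucleus. The nuclear genes followed here were chosen by symbol, so they include assembly factors of complex I but not CYC1 of complex III. NRF1, the ETS factor GABPA and YY1 are known activators of many promoters of respiratory chain genes.

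Promoter sequences came from RefSeq (GRCh38.p14) as windows from 250 bases before to 50 after a gene's start, and 73 of the 88 genes with a peak matched an entry. Coordinates given here are those of the same letters in GRCh37. The following stretches end just before the start site, lie within the member peak and are shown because they hold the sites for which the chain genes are best known, or, for COX7C, because it is the peak that fell most. Capitals mark the NRF1 consensus GCGCATGC on either strand in the first 4, the ETS consensus CCGGAAGT as well in COX5B, and the ZNF143 core ACTACAATT in COX7C.
SDHB, chr1:17380528-17380737, minus strand: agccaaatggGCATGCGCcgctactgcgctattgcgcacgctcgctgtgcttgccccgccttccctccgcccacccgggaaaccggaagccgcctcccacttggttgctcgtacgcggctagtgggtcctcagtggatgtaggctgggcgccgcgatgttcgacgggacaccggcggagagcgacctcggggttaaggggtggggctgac
COX6A1, chr12:120875686-120875915, plus strand: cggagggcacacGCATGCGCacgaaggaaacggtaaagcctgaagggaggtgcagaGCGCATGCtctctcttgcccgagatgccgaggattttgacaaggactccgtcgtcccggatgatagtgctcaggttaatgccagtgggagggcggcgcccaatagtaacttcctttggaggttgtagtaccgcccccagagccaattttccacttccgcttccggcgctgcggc
COX5B, chr2:98262375-98262524, plus strand: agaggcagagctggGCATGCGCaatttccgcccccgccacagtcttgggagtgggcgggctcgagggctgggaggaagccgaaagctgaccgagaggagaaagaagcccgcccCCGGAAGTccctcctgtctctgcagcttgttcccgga
ATP5F1C, chr10:7830040-7830139, plus strand: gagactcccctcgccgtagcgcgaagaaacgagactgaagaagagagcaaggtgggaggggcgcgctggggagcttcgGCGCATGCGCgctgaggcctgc
COX7C, chr5:85913558-85913757, plus strand: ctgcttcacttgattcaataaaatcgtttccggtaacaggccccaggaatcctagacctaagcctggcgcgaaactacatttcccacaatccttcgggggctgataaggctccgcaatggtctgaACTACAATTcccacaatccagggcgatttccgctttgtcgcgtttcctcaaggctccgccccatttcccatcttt

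The NRF1 consensus was present in 16 of the 73 genes (21.9%), against 6.22% of 10561 other protein-coding genes with a TSS peak and 4.89% of all 15842 genes with a window. Its matches began between 218 bases before the start site and 6 after it, on the gene's strand. The windows of NDUFV3 and SDHA, with changes of 1.43 and 1.40, hold no match. NDUFS7, which had the largest change, NDUFA6 (1.38) and SDHD (0.41) hold the consensus, as these short stretches around the site show.
NDUFS7: tccggtttccGCATGCGCtccgagccgc
NDUFA6: ctgtagatgaGCATGCGCagcacccacc
SDHD: agctgtgtttGCGCATGCGCgacgggtg

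The YY1 consensus AAGATGGCG was present in 10 of the 73 genes (13.7%), against 4.48% of the other genes with a TSS peak and 3.21% of all genes with a window. In 9 of the 10 the match lay on the gene's own strand, between 9 and 25 bases after the start site. The letters hold an ATG, and in 8 of these 9 genes GENCODE annotates that ATG as a start codon of the gene, for which reason the stretches around the match (in capitals) are shown. NDUFAF8 was the exception. Among the 473 other genes with a TSS peak and this consensus, 292 (61.7%) had a match on their own strand after the start site.
SDHB: caggagccAAGATGGCGgcggtggt
UQCRC1: gcagctggAAGATGGCGgcgtccgt
NDUFS4: cctgcagcAAGATGGCGgcggtgtc
NDUFB8: agaaggtgAAGATGGCGgtggccag
NDUFA9: tgtgggaaAAGATGGCGgctgccgc
NDUFAF8: acggacctAAGATGGCGgcctccag
NDUFS7: ccgaggccAAGATGGCGgtgctgtc
NDUFA7: gcggacggAAGATGGCGtccgccac
NDUFA6: gctttggcAAGATGGCGgggagcgg

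The ETS consensus was in 16.4% of the chain genes, 9.82% of the other genes with a TSS peak and 6.97% of all genes with a window. The SP1 consensus GGGGCGGGG was in 16.4% of the chain genes, against 33.1% and 26.2%. The cAMP response element TGACGTCA was in 6.85% against 3.82% and 3.00%, the E-box CACGTG in 11.0% against 12.6% and 10.9%, the NFY box CCAATCA in 8.22% against 11.5% and 10.3%, and TATAAA in 8.22% against 8.70% and 12.4%. The ESRRA element TCAAGGTCA and the ZNF143 core each had a match in 1 chain gene, SDHD and COX7C. Both strands were searched throughout, the palindromic form of the NRF1 site was counted once per gene, and matches are descriptions of the letters and not of bound sites.

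**Figure D1:**
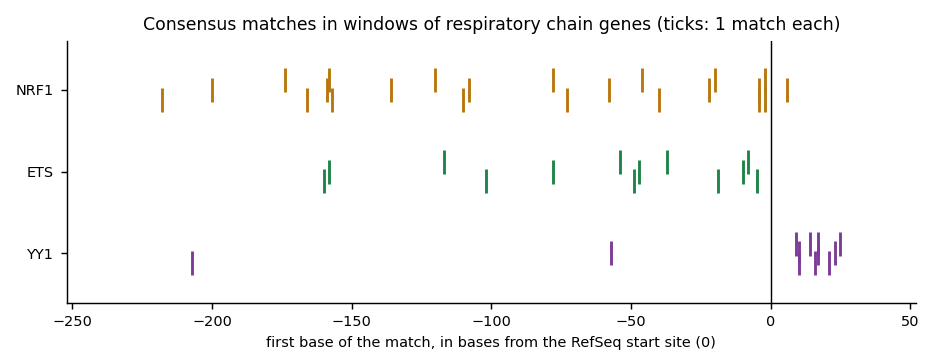
Positions of NRF1, ETS and YY1 consensus matches in promoter windows of respiratory chain genes with a TSS peak, as the distance in bases of the first base of each match from the RefSeq start site. Matches of NRF1 lie between 218 bases before the start and 6 after it, and those of ETS between 160 and 5 bases before it. All YY1 matches except those of ATP5PF lie between 9 and 25 bases after the start. A site held by overlapping windows of a gene is drawn for each window, as for YY1 at ATP5PF and NDUFAF8.

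Values are scaled read counts per peak, which the authors brought to the size of the smallest library. Changes are M-phase over G1 on the log2(scaled count + 8) scale, tested with limma over all 73121 peaks that passed the filter, with Benjamini-Hochberg adjustment, and a peak was called at an adjusted p under 0.05. Directions follow the phases that the names of the library columns give. A log2 column of the authors' comparison, named as M over G1, runs the opposite way to those columns, and every direction given here would turn if the library columns were the ones misnamed. Total scaled counts in peaks ranged from 4191845 to 5092426 in G1 and from 5475345 to 6000423 in M-phase. Of 6 T98G markers fixed for a check of the cells, VIM, CD44, FN1 and SOX2 had a peak over a TSS, SOX2 with at most 16 scaled counts in any library, while NES and GFAP had none. Of markers of other cell types EPCAM had one, with 62.5 to 120.3 scaled counts, and CDH1, PTPRC, CD3E and ALB had none.

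Of the 94 member peaks, 41 were higher in M-phase, 3 were lower and 50 were not called, and the median log2 change was 0.48. Among all peaks tested, 14.3% were higher and 13.1% lower, with a median of 0.02. Promoter peaks of protein-coding genes as a whole had 47.1% higher and 5.29% lower and a median of 0.45, beside 43.6% and 3.19% of the members. Protein-coding promoter peaks in the central part of the members' range of levels had 53.5% higher and 3.81% lower and a median of 0.53. This set includes members but not those with the lowest and highest levels, so its median and that of all 94 members cover unlike ranges. All 3 M-phase libraries lay above all 3 G1 libraries at 49 members and below at 4, which is 52.1% and 4.26%, beside 52.3% and 7.76% of the protein-coding promoter peaks tested. The number of members that rose was thus near the share of promoters in general, and the individual genes below are described against that background. By comparison, 65 of 88 tested promoter peaks of cytosolic ribosomal protein genes were higher and none lower, with a median of 0.80, and 38 of 78 of mitochondrial ribosomal protein genes were higher and 3 lower, with a median of 0.49. These differences between gene sets were not tested.

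**Figure D2:**
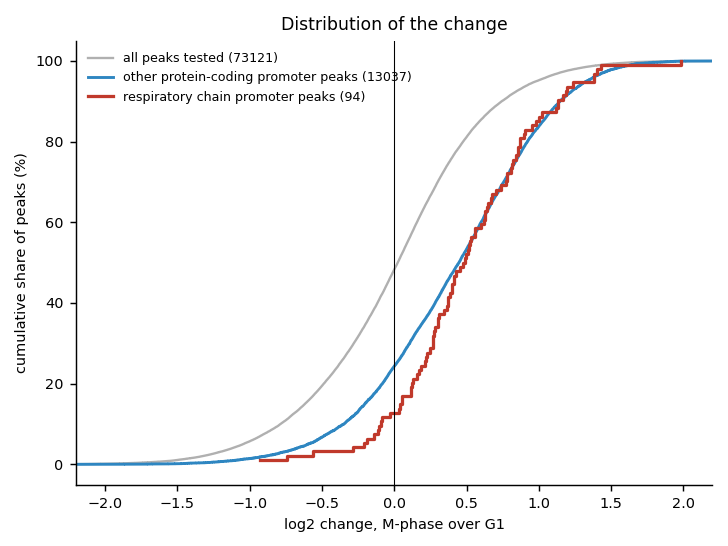
Cumulative share of peaks (%) against the log2 change of M-phase over G1, for all 73121 peaks tested, the 13037 other protein-coding promoter peaks tested and the 94 respiratory chain promoter peaks. The curve of the chain promoters runs close to that of the other promoters above a change of about 0.5 and holds fewer peaks below 0.

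G1 replicate 3 read high at promoters in general. Its median log2(scaled count + 8) over all protein-coding promoter peaks was 7.31, beside 7.11 in G1 replicate 1 and 7.01 in G1 replicate 2. It was the highest G1 library at 67 of the 94 members, and at 44 of the 50 that were not called. Without it 58 members were higher and 3 lower, and the share of protein-coding promoter peaks called higher rose as well, to 54.1%. Leaving out any other library gave 35 to 41 higher and 2 or 3 lower.

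The size of the rise also depended on the scaling. With equal totals in peaks in every library the member median was 0.16, with 30 higher and 8 lower, and with a trended loess fit on abundance it was 0.21, with 27 higher and 17 lower. The median of all protein-coding promoter peaks moved too, to 0.12 and 0.06. Across all 15 settings 21 member peaks were called higher each time, and COX7C and NDUFA4 were called lower each time.

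**Figure D3:**
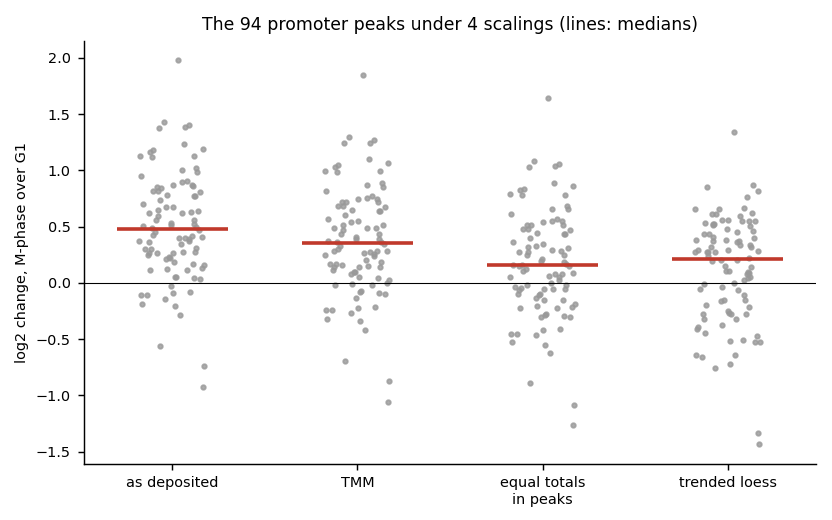
Log2 change of M-phase over G1 at the 94 member peaks under the deposited scaling, TMM, equal totals in peaks and a trended loess fit, with 1 point per peak and a line at the median. The median is 0.48 as deposited, 0.36 with TMM, 0.16 with equal totals and 0.21 after loess, while the highest and the lowest points keep their side of 0.

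**Figure D4:**
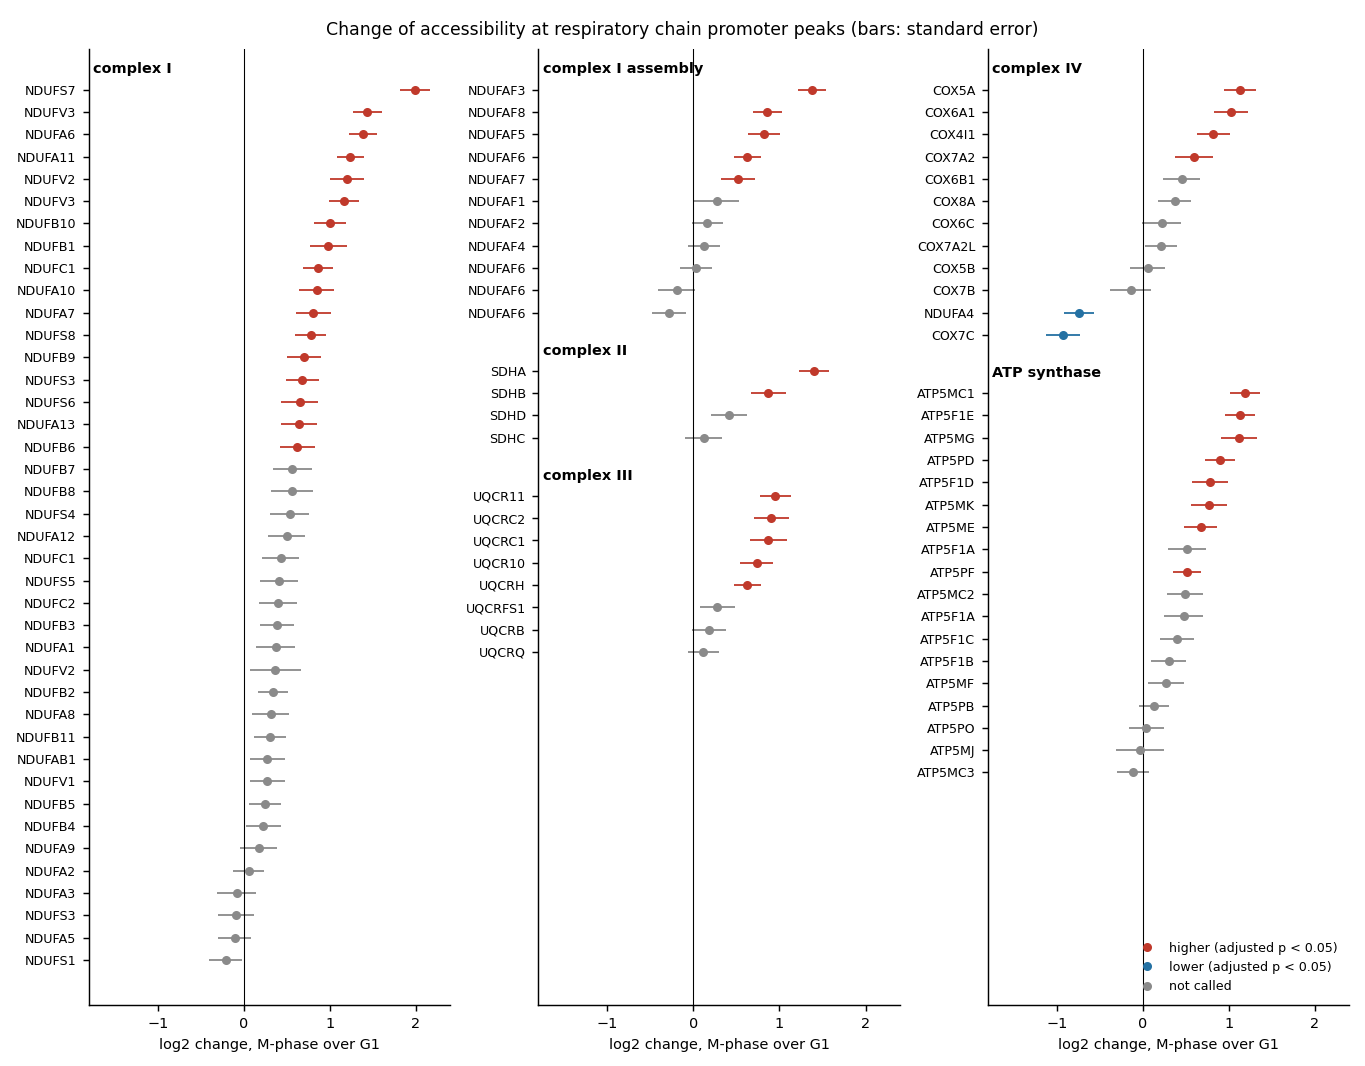
Log2 change of M-phase over G1 (horizontal axis) at 93 of the 94 member peaks, grouped by complex, with bars for the standard error and colour for the call by limma. NDUFS7 stands at the top with 1.98, and NDUFA4 and COX7C are called lower.

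Complex I, the NADH dehydrogenase, contributed 41 peaks of 38 genes, counting the readthrough gene NDUFC2-KCTD14, and all of these genes had a peak. Of the 41 peaks 17 were higher, 1 was lower and the median change was 0.49. The largest rise of any member was at NDUFS7, a core subunit that carries an iron-sulfur cluster near the ubiquinone site. Its scaled counts were 147.1, 129.7 and 140 in the G1 libraries and 506.3, 588.0 and 628.4 in the M-phase libraries. The lowest M-phase library was more than 3 times the highest G1 library, and the change was 1.98 (SE, the standard error, 0.17, limma adjusted p = 4.47e-16). The peak spans chr19:1382939-1384572 and holds no TSS of another protein-coding gene.

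NDUFA11 and NDUFA6 encode accessory subunits of complex I. Per kilobase of peak, their mean levels were 193 and 148 scaled counts in G1 and 464 and 394 in M-phase, beside 189 and 518 at the stronger NDUFV3 peak. At NDUFA6 the scaled counts were 269.4, 228.1 and 247 in G1 and 592.0, 726.8 and 663.1 in M-phase, a change of 1.38 (SE 0.16, limma adjusted p = 8.12e-11). At NDUFA11 they were 315.2, 300.0 and 345 in G1 and 698.3, 881.8 and 726.1 in M-phase, a change of 1.24 (limma adjusted p = 1.17e-09). In neither did the phases overlap. The NDUFA11 peak also holds the TSS of VMAC, so its reads cannot be given to 1 of the genes.

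NDUFS1, the large subunit of the NADH-oxidising arm, changed by -0.21 (limma adjusted p = 0.464), with 221.7, 158.6 and 316 in G1 and 182.9, 189.9 and 204.5 in M-phase. It was called lower with equal totals (-0.55) and after the loess fit (-0.72).

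Some complex I genes had more than 1 TSS peak. NDUFV3, an accessory subunit of the NADH-oxidising arm, rose at both. The peak at chr21:44312881-44314143 changed by 1.43, from 231.6, 204.7 and 279 to 589.9, 671.2 and 700.1 (limma adjusted p = 3.6e-11). The peak at chr21:44298906-44300111, which also covers a TSS of WDR4, changed by 1.17, from 180.9, 182.8 and 183 to 416.5, 429.8 and 410.4 (limma adjusted p = 7.2e-08). NDUFV2, a core subunit of the same arm, rose at its main peak by 1.19, from 113.3, 78.9 and 108 to 222.5, 244.3 and 244.0 (limma adjusted p = 7.19e-07). Its weak downstream peak had at most 19 scaled counts in any library and changed by 0.36 (limma adjusted p = 0.397).

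NDUFC1, a membrane subunit, showed a rise at the peak it shares with NAA15, from 201.8, 186.7 and 280 to 394.7, 405.9 and 411.4, a change of 0.86 (limma adjusted p = 6.32e-05). Its other peak, not shared, changed by 0.43 (limma adjusted p = 0.134). The contrast between them was not stable, since without G1 replicate 3 the unshared peak changed by 0.66 and was called, and after the loess fit the shared peak changed by 0.20 and was not. NDUFS3, a core subunit, rose at the peak it shares with KBTBD4, from 123.3, 118.0 and 124 to 195.7, 222.9 and 182.4, a change of 0.68 (limma adjusted p = 0.00435) that was no longer called without M-phase replicate 2 (0.60), with equal totals (0.34) or after loess (0.29). The peak with TSSs of CELF1 and PTPMT1 changed by -0.09 (limma adjusted p = 0.803). The differences between peaks of a gene were not tested.

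The NDUFAF genes encode assembly factors, which help to build complex I and are not part of the finished complex. Of their 11 peaks 5 were higher and none lower, with a median of 0.27. NDUFAF3 rose most, from 292.3, 258.6 and 343 to 755.9, 788.6 and 804.5, a change of 1.38 (SE 0.16, limma adjusted p = 3.7e-11), at a peak shared with DALRD3. NDUFAF8, shared with TEPSIN, changed by 0.86 (limma adjusted p = 2.33e-05), but by 0.10 and without a call after the loess fit. NDUFAF6 had 4 TSS peaks. The one that rose, by 0.63 (limma adjusted p = 0.00134), also holds the TSS of CCNE2, which encodes a cyclin of the G1/S transition, and turned to -0.28 after loess. The one with the lowest change, -0.29 (limma adjusted p = 0.302), holds the TSS of TP53INP1. Every M-phase library was below every G1 library there, and it was called lower with equal totals (-0.62) and after loess (-0.64). The other 2 NDUFAF6 peaks changed by 0.04 and -0.19 and were not called. The former was called lower after loess (-0.52), and the latter with equal totals (-0.52).

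**Figure D5:**
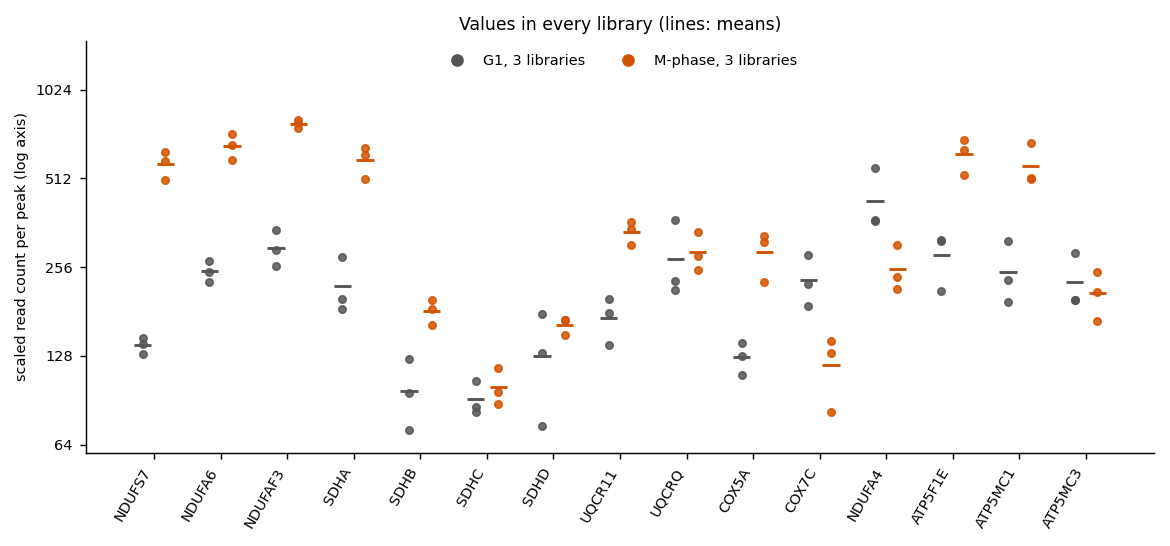
Scaled read count (log axis) at 15 member peaks in each of 3 G1 and 3 M-phase libraries, with lines at the means. The points of the phases are apart at NDUFS7, NDUFA6, NDUFAF3 and SDHA, where M-phase is above, and at COX7C and NDUFA4, where it is below, while they overlap at SDHC, SDHD, UQCRQ and ATP5MC3.

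Complex II, succinate dehydrogenase, is made of 4 subunits, and all 4 genes had 1 peak. The promoters of the catalytic pair rose and those of the membrane anchors were not called with all libraries, though SDHD was without G1 replicate 3. SDHA, the flavoprotein that oxidises succinate, had 199.8, 184.4 and 278 in G1 and 510.4, 613.5 and 650.1 in M-phase, a change of 1.40 (SE 0.17, limma adjusted p = 1.95e-10). SDHB, its iron-sulfur partner, had 71.6, 96.1 and 125 in G1 and 162.3, 197.8 and 184.8 in M-phase, a change of 0.87 (SE 0.20, limma adjusted p = 0.000462). At both genes every M-phase library was above every G1 library.

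The anchors SDHC and SDHD overlapped between the phases. SDHC had 105.4, 82.8 and 86 in G1 and 88.2, 96.4 and 116.0 in M-phase, a change of 0.12 (SE 0.21, limma adjusted p = 0.732). SDHD had 131.2, 74.2 and 177 in G1 and 151.2, 168.9 and 169.9 in M-phase, a change of 0.41 (SE 0.21, limma adjusted p = 0.138). With 1 library left out the SDHD change ranged from 0.09 to 0.68, and at 0.68, without G1 replicate 3, it was called higher. Whether the subunits differ in their change was not tested. SDHA has near-identical copies elsewhere in the genome, and reads mapping to up to 3 places were kept at 1 of them, so its counts are uncertain to that extent. Its peak also holds TSSs of CCDC127, and that of SDHD a TSS of TIMM8B.

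Complex III, ubiquinol-cytochrome c reductase, had 8 peaks, of which 5 were higher and none lower, with a median of 0.68. UQCR11, a small subunit, had 198.8, 139.1 and 179 in G1 and 304.8, 363.0 and 346.0 in M-phase, a change of 0.95 (SE 0.18, limma adjusted p = 1.81e-05). The core proteins UQCRC2 and UQCRC1 changed by 0.91 (limma adjusted p = 0.000213) and 0.87 (limma adjusted p = 0.001). UQCRH, the hinge protein next to cytochrome c, had a mean level of 205 scaled counts per kilobase in G1 and 314 in M-phase. Per peak it had 563.7, 403.1 and 506 in G1 and 731.6, 744.1 and 786.7 in M-phase, and changed by 0.62 (limma adjusted p = 0.00112) at a peak shared with LRRC41. This rise reversed under the loess fit, to -0.32.

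UQCRQ, which binds ubiquinone, and UQCRB had the smallest changes of complex III. UQCRQ had 229.7, 214.8 and 371 in G1 and 278.5, 250.5 and 337.8 in M-phase, a change of 0.12 (limma adjusted p = 0.695). UQCRB had 155.1, 125.0 and 255 in G1 and 168.5, 201.1 and 219.4 in M-phase, a change of 0.19 (limma adjusted p = 0.539). In both, G1 replicate 3 was above every M-phase library, and without it UQCRB changed by 0.46 and was called higher.

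Complex IV, the oxidase, had 12 peaks, 4 higher and 2 lower, with a median of 0.29. COX5A and COX6A1 rose most. COX5A, a matrix-facing subunit, had 141.2, 110.2 and 128 in G1 and 227.8, 311.9 and 325.3 in M-phase, a change of 1.13 (SE 0.19, limma adjusted p = 1.28e-06). COX6A1, the form of COX6A found in most tissues, had 103.4, 114.8 and 116 in G1 and 180.4, 241.9 and 293.0 in M-phase, a change of 1.02 (SE 0.20, limma adjusted p = 1.96e-05). COX5B, whose upstream sequence above also holds an NRF1 site, had 132.2, 117.2 and 165 in G1 and 135.1, 125.3 and 170.8 in M-phase, a change of 0.06 that was not called.

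COX7C and NDUFA4 were lower. COX7C, a small membrane subunit, had 188.9, 224.2 and 282 in G1 and 143.8, 131.0 and 82.8 in M-phase, a change of -0.93 (SE 0.20, limma adjusted p = 0.000132). NDUFA4, which is named after complex I but is a subunit of the oxidase, had 367.8, 368.8 and 553 in G1 and 215.0, 236.9 and 303.1 in M-phase, a change of -0.74 (SE 0.18, limma adjusted p = 0.000591). In both, every M-phase library was below every G1 library. Its mean level per kilobase of peak was 317 scaled counts in G1 and 185 in M-phase. COX7A2L, a factor of supercomplex assembly, changed by 0.21 (limma adjusted p = 0.431), from 232.6, 185.9 and 279 to 218.7, 303.7 and 286.3.

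ATP synthase had 18 peaks, 8 higher and none lower, with a median of 0.50. ATP5F1E, the epsilon subunit of the central stalk, had 317.1, 212.5 and 314 in G1 and 526.1, 691.4 and 639.0 in M-phase, a change of 1.13 (SE 0.17, limma adjusted p = 8.07e-08). ATP5MC1, ATP5MC2 and ATP5MC3 encode the same mature c subunit, the ring that turns in the membrane. ATP5MC1 had 194.9, 232.0 and 313 in G1 and 513.7, 674.5 and 507.6 in M-phase, a change of 1.18 (SE 0.17, limma adjusted p = 4.07e-08). ATP5MC2 changed by 0.49 (limma adjusted p = 0.0718), and without G1 replicate 3 by 0.65, when it was called higher. ATP5MC3, with 197.8, 198.4 and 285 in G1 and 168.5, 211.4 and 246.8 in M-phase, changed by -0.11 (SE 0.19, limma adjusted p = 0.718). With equal totals (-0.45) and after loess (-0.64) ATP5MC3 was called lower. The differences between these genes were not tested.

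ATP5PF, a subunit of the peripheral stalk, shares its peak with GABPA, so that a chain gene and the gene of a known activator of the chain genes lie in 1 region of open chromatin. The peak had 405.6, 382.0 and 589 in G1 and 615.0, 648.1 and 669.8 in M-phase, a change of 0.51 (SE 0.16, limma adjusted p = 0.0117). Every M-phase library was above every G1 library, but under the loess fit the change was -0.39. The call was lost with equal totals (0.16) and without the variance trend of limma. It was also lost without G1 replicate 1 (0.43), M-phase replicate 2 (0.50) or M-phase replicate 3 (0.48). ATP5MJ, a small membrane subunit, had at most 43.7 scaled counts in any library over a short peak of 418 bases, and changed by -0.03 (limma adjusted p = 0.953).

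The 9 genes without a TSS peak were COX4I2, COX6A2, COX6B2, COX7A1, COX7B2, COX8C, NDUFA4L2, UQCRHL and ATP5MGL. These were the 9 that had been listed apart as tissue-restricted isoforms or close relatives of a chain gene. COX6A2 and COX7A1 are forms of heart and skeletal muscle, COX6B2, COX7B2 and COX8C are known from testis, and NDUFA4L2 is induced by hypoxia. From any of their TSSs the nearest peak lay between 453 and 24720 bases away. The paralogues used in most tissues, COX4I1, COX6A1, COX6B1, COX7A2, COX7B and COX8A, all had a TSS peak. A peak list holds only what passed the caller, so these promoters were not detected as peaks, which does not show that they are closed.

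Member promoters were often shared. Of the 94 peaks, 45 also held a TSS of another protein-coding gene, and 25 of these were higher and none lower, with a median of 0.62. Of the 49 not shared, 16 were higher and 3 lower, with a median of 0.40. Among other promoter peaks shared by 2 or more protein-coding genes, 64.2% were higher, with a median of 0.65. The reads of a shared peak cannot be divided between its genes.

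The 3 lower peaks were all in the lower range of GC content. Among the 32 members of 38.7% to 57.1% GC, 9 were higher and 3 lower, among the 31 of 57.3% to 61.3% 13 were higher and none lower, and among the 31 of 61.7% to 74.2% 19 were higher and none lower. Other promoter peaks were split at the same limits between low, middle and high, but reached from 28.7% to 85.2% GC, beyond the members at both ends. They were called higher in 34.5%, 50.4% and 50.7% and lower in 10.7%, 4.56% and 3.61%. Across the 94 members the change had a Spearman's rho of 0.27 with GC content, 0.36 with peak width and 0.30 with level, beside 0.06, 0.45 and 0.53 across 13028 other promoter peaks. These are descriptions across peaks of the same 6 libraries, and width and level both grow with the number of reads.

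Members with the YY1 consensus had 10 peaks, of which 7 were higher and none lower, with a median change of 0.83, beside 30 higher and 1 lower of 63 matched members without it and a median of 0.51. For NRF1 the counts were 8 higher of 16 with it, with a median of 0.50, and 29 higher of 57 without it, with a median of 0.56. For the E-box 7 of 8 with it were higher, with a median of 0.89, and 30 of 65 without it, with a median of 0.51. For ETS 6 of 13 with it were higher, with a median of 0.51, and 31 of 60 without it, with a median of 0.58. For SP1 5 of 13 with it were higher, with a median of 0.51, and 32 of 60 without it, with a median of 0.58. For the cAMP response element 4 of 5 with it were higher, with a median of 0.84, and 33 of 68 without it, with a median of 0.53. Motifs were assigned by gene, so both ATP5F1A peaks count as having ETS and SP1, though the windows of that gene hold only a single match of each. These counts are small, none was tested, and no bound factor was measured.

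Other genes of the pathway came from lists of 42 assembly factors of the complexes, 14 electron carriers and related enzymes and 16 regulators, and each gene had a TSS peak. For comparison, protein-coding promoter peaks as a whole had 47.1% higher and 5.29% lower, with a median of 0.45. Differences of the lists from these values were not tested. Of 46 assembly factor peaks tested, 24 were higher and 1 lower, with a median of 0.56. ACAD9, a complex I assembly factor, rose from 85.5, 109.4 and 94 to 239.8, 289.7 and 266.6, a change of 1.39 (limma adjusted p = 9.38e-09). The one lower was ATPAF1, an assembly factor of the synthase, which fell from 327.1, 264.8 and 420 to 181.3, 204.0 and 205.9, a change of -0.73 (limma adjusted p = 0.000986). Of 15 peaks of carriers 9 were higher and none lower, with a median of 0.59, among them CYC1, the cytochrome of complex III, with 0.52 (limma adjusted p = 0.0161). The CYC1 call was lost without G1 replicate 2 (0.40), M-phase replicate 2 (0.47) or M-phase replicate 3 (0.54).

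Regulators of these genes had 17 peaks, of which 15 were higher and none lower, with a median of 0.88. Protein-coding promoter peaks as a whole had 47.1% higher and 5.29% lower, and the difference was not tested. The GABPA peak among the regulators is the ATP5PF member peak described above. PPARGC1A, a coactivator of mitochondrial biogenesis, rose from 17.9, 15.6 and 24 to 55.2, 84.1 and 62.6, a change of 1.46 (limma adjusted p = 3.99e-06). YY1 rose from 336.0, 281.3 and 355 to 807.4, 980.2 and 920.5, also a change of 1.46 (limma adjusted p = 2.98e-12). NRF1 changed by 0.59 (limma adjusted p = 0.00853) and TFAM, a packaging and transcription factor of mitochondrial DNA, by 0.52 (limma adjusted p = 0.0384). The NRF1 call was lost without M-phase replicate 3 (0.50), and that of TFAM when G1 replicate 1 or 2 or M-phase replicate 2 or 3 was left out, with changes from 0.38 to 0.49. At all of these the libraries of the phases did not overlap, except at TFAM, where G1 replicate 3 was above M-phase replicate 1. Some calls of the other pathway genes were also lost with other scalings, as given at the end.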

How the data were processed

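Members, gene lists and tests were chosen with earlier results of these data known. According to the methods, the authors trimmed adapters with cutadapt, mapped reads to hg19 with Rbowtie keeping 1 of up to 3 locations, used SAMtools to drop mitochondrial reads, and ran MACS2 in its broad mode on merged replicates. Tool versions and any shift of read ends for the Tn5 site are not given in the sources used here. The deposited signal values give reads per peak after the authors had scaled every library to the smallest. A deposited log2 column of the authors' comparison is named as M over G1 but has the opposite sign to the library columns. It was not used, and directions follow the names of the library columns. The number of per-sample columns not used was 0.

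The values are scaled, so limma 3.58.1 (R 4.3.3) with a variance trend was fitted to log2(value + 8) without covariates, instead of a count model, and checked on simulated data. Peaks needed at least 3 libraries at a value equivalent to 10 in a library of median size and a sum of 15 or more, and 73121 of 129347 passed. Peaks were assigned by overlap with TSSs of GENCODE release 44 on GRCh37. GC content was read from that genome with pysam 0.24.0. Named peaks were, in each group, the 2 highest, the 2 with the largest and the 2 with the smallest change, every complex II and every lower peak, and genes with several TSS peaks of which 1 was called. Of the other pathway genes they were the 3 largest and 3 smallest changes among those called, with NRF1, GABPA, PPARGC1A and TFAM. COX5B, UQCRC1, ATP5MC2, the SOX2 and EPCAM markers and genes of printed sequences were added after their values were seen. The values of 1 lower peak and of 1 cell type marker are not reported here.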

Additional observations from a re-analysis of the deposited data

How the results depend on the processing

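The alternatives were TMM, equal totals in peaks, a trended loess fit, a pseudocount of 1, other filters, no variance trend, a replicate block, each library left out and other definitions of the members. The number higher, 41 of 94, moved to 27 after loess. Among the 49 peaks not shared with another protein-coding gene it was 16, which is 32.7%, beside 43.6% of all members. The number lower, 3, moved to 8 with equal totals and 17 after loess. The median change of 0.48 moved to 0.16 with equal totals and 0.21 after loess, and its difference from all protein-coding promoter peaks, 0.04, moved to 0.15 after loess and -0.049 among unshared peaks. Leaving out a library gave 35 to 58 higher, 2 to 3 lower, a median of 0.39 to 0.60 and a difference of -0.01 to 0.06. After loess 14 members not lower before were called lower. Among the named peaks the changes reversed after loess at UQCRH (-0.32), COX7A2L (-0.37), UQCRQ (-0.51), NDUFAF6 (-0.28 at the CCNE2 promoter and -0.52 at another peak), ATP5PF with GABPA (-0.39) and CYC1 (-0.15). Calls were lost after loess at 5 named peaks, among them NDUFAF8 (0.10), the shared NDUFC1 peak (0.20) and NDUFS3 (0.29). With equal totals 5 lost their call, among them NDUFS3 (0.34) and ATP5PF with GABPA (0.16). The other losses in both settings were at other pathway genes. NDUFS1, ATP5MC3 and the NDUFAF6 peak with the TP53INP1 TSS were newly called lower in both settings. With equal totals so was the NDUFAF6 peak that had changed by -0.19. The cause was not tested. The replicate block gave 42 higher, 3 lower and the median 0.48. Same-numbered libraries hardly deviated together (r = 0.0059, -0.0101 and 0.0284). This does not show whether they were prepared together, which the labels do not say. The count models planned for whole reads were not run, since the deposited values are scaled.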
